A study of Mus musculus with 24 samples.

Results

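The genes described here are 32 mouse genes of the NRF2, glutathione and antioxidant system, among 21669 genes in the deposited count table. They were chosen by symbol, from the functions known for their products and with earlier results of these data known. Every symbol was found in the table. By role they are the sensor and transcription factor (Keap1, Nfe2l2), cystine import and glutathione synthesis and recycling (Slc7a11, Gclc, Gclm, Gss, Gsr), thioredoxin and peroxiredoxin (Txn1, Txnrd1, Srxn1, Prdx1), superoxide and peroxide removal (Sod1, Sod2, Cat, Gpx1, Gpx4), glutathione transferases (Gsta4, Gstm1, Gstm2, Gstp1, Mgst1), NADPH supply (G6pdx, Pgd, Taldo1, Tkt, Me1), heme breakdown (Hmox1, Blvrb), and detoxification and export (Cbr1, Ephx1, Esd, Abcc1).

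NRF2, the product of Nfe2l2, is a transcription factor that KEAP1 binds in the cytoplasm and passes to the proteasome. Oxidants and electrophiles modify KEAP1, NRF2 then accumulates in the nucleus, pairs with small MAF proteins and binds antioxidant response elements beside genes for glutathione synthesis, thioredoxin recycling, NADPH supply and detoxification, while BACH1 competes for the same elements. Macrophages use these enzymes to bound the oxidants they make when activated, and many tumour cells depend on them for redox balance.

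The study treated 2 mouse cell lines with a CpG oligonucleotide, with carbon nanotubes, or with both, and measured polyadenylated RNA by sequencing. K-Luc is a luciferase-expressing derivative of the KR158B glioma line, of C57BL/6 origin, and RAW-Blue is a RAW macrophage line with a stably integrated secreted alkaline phosphatase reporter driven by NF-kB and AP-1. Each line had 5 groups: untreated cells given water, free CpG-28 oligonucleotide (CpG), single-walled carbon nanotubes coated with Lipid-PEG2000-OMe (SWNT/LP), the oligonucleotide and the coated nanotubes added together (CpG+SWNT/LP), and the oligonucleotide bound to the nanotubes without the lipid coat (SWNT/CpG), with each component at 10 µg/mL. All cells adhered for 24 h before treatment. K-Luc cells were then treated for 17 to 19 h and RAW-Blue cells for 47 to 50 h, so line and treatment time cannot be told apart. K-Luc had 2 untreated libraries and 3 of each other group, and RAW-Blue had 2 of each group. K-Luc cells were plated in and around an insert and RAW-Blue cells only inside it. No group received an oligonucleotide without CpG, and each cell type is represented by 1 established line. Nothing in the labels says that replicates came from separate cultures, so the p-values measure the spread between these libraries, which may be technical.

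Library depth ran from 13318636 to 24130359 reads assigned to genes. The 8 macrophage markers examined lay between 21.5 and 1367 CPM (a gene's reads scaled to the library's total) in untreated RAW-Blue cells and between 0 and 9.15 CPM in untreated K-Luc cells, with Adgre1 at 0 there. In untreated K-Luc cells Nes, Cspg4 and Sox2 stood at 138 to 224 CPM and Col1a1 at 4376 CPM, whereas the glial markers Olig2, Gfap, S100b, Fabp7 and Slc1a3 lay at or below 0.792 CPM. The untreated RAW-Blue pair differed from each other more than any other pair of one group, with a mean chi-square per gene of 43.2 against 1.95 to 14.5, so results against that group are also given without each of its libraries. Replicate 1 of K-Luc untreated, CpG+SWNT/LP and SWNT/CpG came from another sequencing run than the rest. Between runs 8 of the 32 genes differed, all higher in the later run, against 17.4% of 12420 genes, and every K-Luc fit holds a term for the run. Below, a gene is said to rise, fall or change only where edgeR's quasi-likelihood test gave a Benjamini-Hochberg adjusted p under 0.05 over all genes tested. Values of single libraries are CPM scaled by TMM within a line, and changes are log2 fold changes ± standard error (SE).

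In untreated cells, levels per transcript length (RPKM, the authors' values) placed abundant peroxide and disulfide enzymes at the top of the list. In K-Luc cells the highest means were those of Prdx1, which reduces hydrogen peroxide, at 202 RPKM, of Txn1, the cytosolic thioredoxin, at 181 RPKM, and of the glutathione peroxidase gene Gpx1 at 148 RPKM. In RAW-Blue cells Gpx1 led with 346 RPKM, followed by Prdx1 at 181 RPKM and the pentose phosphate enzyme genes Tkt at 164 RPKM and Pgd at 163 RPKM. Slc7a11, the cystine importer that feeds glutathione synthesis, stood at 2.70 RPKM in both lines, the lowest of the 32 in K-Luc cells.

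The untreated lines differed widely in their glutathione transferases and in NADPH supply. In a fit of both lines, 25 of 32 genes differed, 14 higher and 11 lower in RAW-Blue cells, beside 77.9% of the 13350 genes tested (37% higher, 40.9% lower). All 5 glutathione transferases, which couple glutathione to electrophiles, were lower in RAW-Blue cells. With all libraries scaled together, Gstm1 averaged 63.9 ± 0.631 CPM (SD, n = 2) in K-Luc and 7.74 ± 1.22 CPM in RAW-Blue cells, and Gstp1 41.7 ± 4.34 against 0.843 ± 0.442 CPM. Gstm2 had no read in any of the 10 RAW-Blue libraries, where 3 reads would be 0.148 to 0.175 CPM, and averaged 8.67 ± 0.294 CPM in untreated K-Luc cells. Mgst1 had 0 to 8 reads and Gsta4 2 to 11 reads in a RAW-Blue library. These last 3 genes did not pass the filter on low counts in RAW-Blue cells, so 29 of the 32 were tested within that line.

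Of the NADPH suppliers, G6pdx, Pgd, Taldo1 and Tkt, which run the pentose phosphate pathway, were all higher in RAW-Blue cells. Tkt averaged 220.1 ± 7.35 CPM (SD, n = 2) in untreated K-Luc and 865 ± 161 CPM in RAW-Blue cells, a log2 difference of 1.97 ± 0.093. Me1, the cytosolic malic enzyme, went the other way, with 98.7 ± 0.304 against 16.6 ± 4.17 CPM and a log2 difference of -2.59 ± 0.10. Hmox1, the enzyme that opens heme, averaged 115 ± 8.45 CPM in K-Luc and 332 ± 35.7 CPM in RAW-Blue cells. Nfe2l2 itself was moderately higher in RAW-Blue cells, with 172 ± 6.58 against 223 ± 4.51 CPM and a log2 difference of 0.38 ± 0.071 (adjusted p = 4.57e-05, edgeR).

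The oligonucleotide bound to nanotubes lowered more of the antioxidant genes than it raised in K-Luc cells, and raised more than it lowered in RAW-Blue cells. In K-Luc cells 19 of 32 genes changed against untreated cells, 5 higher and 14 lower, beside 43.1% of all genes tested (21.8% higher, 21.3% lower). In RAW-Blue cells 16 of 29 changed, 10 higher and 6 lower, beside 23.2% of all genes (12.8% higher, 10.4% lower). The median log2 change over the genes was -0.12 for K-Luc and 0.13 for RAW-Blue cells, where the medians over all tested genes were 0.01 and 0.002. Per library, the genes' median log2 difference from the untreated mean was -0.183, -0.029 and -0.08 in K-Luc SWNT/CpG libraries. It was -0.049 and 0.049 in untreated K-Luc libraries. In RAW-Blue cells it was 0.203 and 0.058 with SWNT/CpG and 0.099 and -0.099 untreated. These medians of treated and untreated libraries thus overlapped in both lines. The medians carry no term for the run. In K-Luc cells each SWNT/CpG library lay below the untreated library of its own run. Without K-Luc untreated replicate 1 or replicate 2, 16 and 10 of the 19 calls were kept, and without RAW-Blue untreated replicate 1 or 2, 14 and 16 of the 16. The RAW-Blue count fell when SWNT/CpG replicate 1 was left out. Fitting only SWNT/CpG and untreated RAW-Blue libraries left 5, namely Slc7a11, Srxn1, Gpx1, Ephx1 and Esd, beside 7.97% of all genes. Macrophage markers also changed in RAW-Blue cells (2 of 8 rose and 2 fell), and their part in these results was not tested.

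**Figure D1:**
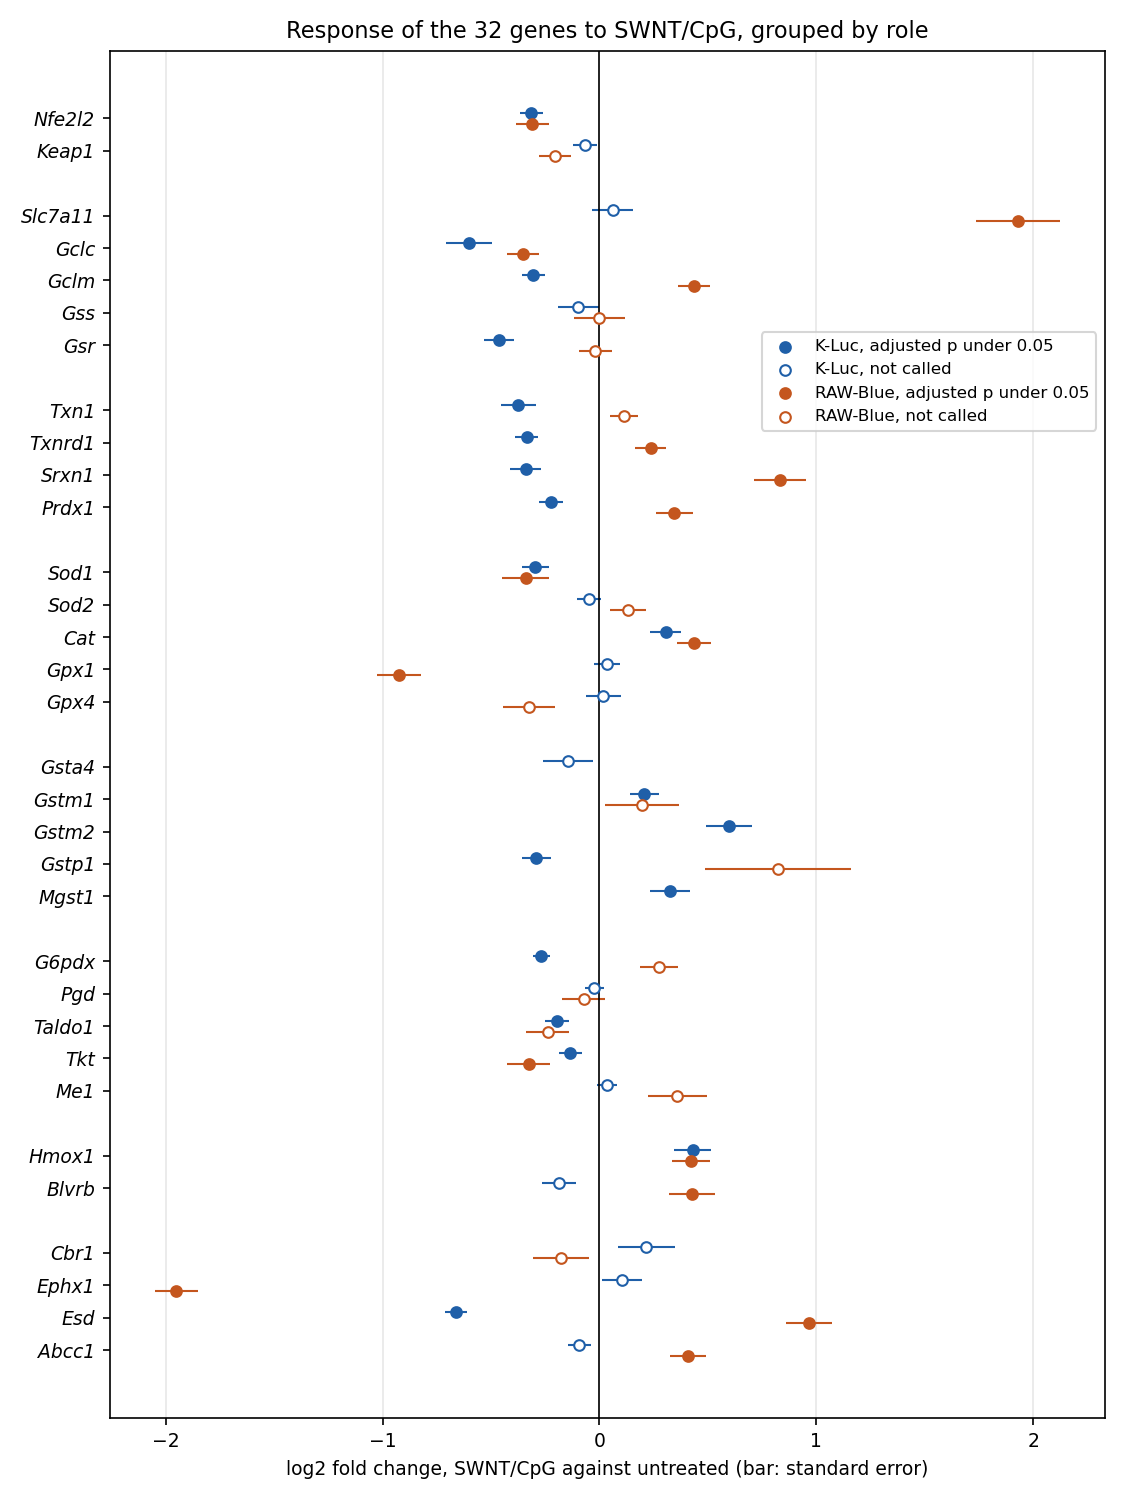
Log2 fold change of SWNT/CpG against untreated cells (x axis) for each of the 32 genes (y axis, grouped by role) in K-Luc (n = 3 against 2) and RAW-Blue cells (n = 2 against 2), with bars of 1 SE and filled points for adjusted p under 0.05. The thioredoxin and peroxiredoxin genes lie left of 0 in K-Luc and right of 0 in RAW-Blue cells, and Slc7a11 and Ephx1 lie far to either side in RAW-Blue cells alone.

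The transcription factor gene fell in both lines. Nfe2l2 stood at 168 and 177 CPM in untreated K-Luc libraries and at 140.2, 143 and 133 CPM with SWNT/CpG, a log2 change of -0.31 ± 0.052 (adjusted p = 0.00015, edgeR). In RAW-Blue cells its level was 213 and 227 CPM untreated and 179 and 176 CPM with SWNT/CpG, a change of -0.31 ± 0.077 (adjusted p = 0.017, edgeR). Every treated library lay below every untreated one in both lines. For Keap1, which encodes the repressor of NRF2, the changes were -0.068 ± 0.055 in K-Luc (adjusted p = 0.342) and -0.21 ± 0.073 in RAW-Blue cells (adjusted p = 0.0673), and neither passed the test.

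The cystine importer rose in RAW-Blue cells, and the genes of glutathione synthesis split. Slc7a11 stood at 39.7 and 59.6 CPM in untreated RAW-Blue libraries and at 216 and 163 CPM with SWNT/CpG. Both treated libraries were far above both untreated ones, with a log2 change of 1.93 ± 0.19 (adjusted p = 0.000207, edgeR), or 1.67 and 2.25 without untreated replicate 1 and 2. In K-Luc cells the same gene had 46.5 and 44.5 CPM untreated and 49.7, 47.0 and 44.4 CPM with SWNT/CpG. These libraries overlapped and the change was 0.061 ± 0.10 (adjusted p = 0.641).

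Glutamate-cysteine ligase, which makes the first bond of glutathione, has a catalytic subunit from Gclc and a modifier subunit from Gclm, and the subunit genes parted in RAW-Blue cells. Gclm had 52.7 and 49.7 CPM in untreated and 71.8 and 66.9 CPM in SWNT/CpG RAW-Blue libraries, and rose by 0.44 ± 0.074 (adjusted p = 0.00239, edgeR). Gclc had 109 and 118 CPM untreated and 87.3 and 90.7 CPM treated there, a change of -0.35 ± 0.073 (adjusted p = 0.00683, edgeR). For each subunit gene the treated and untreated libraries were fully apart.

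In K-Luc cells both subunit genes fell. Gclm went from 69.5 and 75.0 CPM to 60.9, 58.8 and 56.9 CPM, a change of -0.31 ± 0.053 (adjusted p = 0.000246, edgeR), with no overlap. Gclc had 63.7 and 82.3 CPM untreated and 47.7, 53.8 and 46.3 CPM treated, a change of -0.60 ± 0.11 (adjusted p = 0.000494, edgeR). Its untreated libraries were far apart, and without untreated replicate 2 the change was -0.45 (adjusted p = 0.0526). Gsr, the reductase that regenerates glutathione, fell in K-Luc cells from 108 and 122 CPM to 85.9, 84.8 and 82.2 CPM, a log2 change of -0.46 ± 0.068 (adjusted p = 5.44e-05, edgeR), and all 3 treated libraries lay below both untreated ones. In RAW-Blue cells its change was -0.018, and that of Gss, which completes glutathione, was -0.10 with K-Luc and 0.00 with RAW-Blue cells, none of them past the test.

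All 4 thioredoxin and peroxiredoxin genes fell in K-Luc cells, with a median log2 change of -0.34, and 3 of the 4 rose in RAW-Blue cells, where the median was 0.29, beside 21.3% of all genes lower in K-Luc and 12.8% higher in RAW-Blue cells. Without K-Luc untreated replicate 2 the calls of Txn1, Srxn1 and Prdx1 were lost (adjusted p = 0.064, 0.0816 and 0.153, edgeR), and the RAW-Blue call of Prdx1 was lost under 3 of 15 alternative settings. Srxn1 encodes sulfiredoxin, which repairs over-oxidised peroxiredoxins. It stood at 90.2 and 104 CPM in untreated and 77.2, 82.4 and 73.5 CPM in SWNT/CpG K-Luc libraries, a change of -0.34 ± 0.072 (adjusted p = 0.0013, edgeR). In RAW-Blue libraries it stood at 66.9 and 52.2 CPM untreated and 113 and 98.8 CPM treated, a change of 0.83 ± 0.12 (adjusted p = 0.00108, edgeR). All treated libraries were thus below the untreated ones in K-Luc and above them in RAW-Blue cells. Without RAW-Blue untreated replicate 1 or 2 the change was 1.02 and 0.66.

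Txnrd1, the reductase that recharges thioredoxin with electrons from NADPH, followed the same split. Its K-Luc libraries had 310.0 and 311 CPM untreated and 244, 248 and 249.9 CPM with SWNT/CpG, and it fell with a log2 change of -0.34 ± 0.053 (adjusted p = 0.000101, edgeR). Its RAW-Blue libraries had 319 and 297 CPM untreated and 377 and 349 CPM treated, a change of 0.24 ± 0.073 (adjusted p = 0.0414, edgeR) whose call was lost under 11 of 15 alternative settings. The libraries did not overlap in either line. Prdx1 fell in K-Luc cells, with a log2 change of -0.23 ± 0.055, and rose by 0.35 ± 0.086 in RAW-Blue cells. Txn1 fell in K-Luc cells (-0.38 ± 0.081), while its RAW-Blue change of 0.11 had an adjusted p of 0.249.

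Among the enzymes that remove superoxide and peroxide, Gpx1 stood out in RAW-Blue cells. It had 652 and 518 CPM in untreated libraries and 311 and 305 CPM with SWNT/CpG. Both treated libraries were below both untreated ones, which themselves lay well apart, and the log2 change was -0.92 ± 0.10 (adjusted p = 0.000204, edgeR), or -0.75 without the higher untreated library and -1.08 without the lower. In K-Luc cells Gpx1 had 219.7 and 241 CPM untreated and 223, 248.8 and 249.99 CPM treated, a change of 0.036 ± 0.060 that did not pass the test. Cat, the peroxisomal catalase, rose in both lines, by 0.31 ± 0.072 in K-Luc and 0.44 ± 0.077 in RAW-Blue cells. Its untreated and treated libraries had 65.9 and 61.1 against 77.5, 80.9 and 75.3 CPM in K-Luc and 144 and 148 against 210.4 and 185 CPM in RAW-Blue cells, fully apart in each line. Sod1, the cytosolic superoxide dismutase, fell in both, with -0.30 ± 0.062 and -0.34 ± 0.11. The RAW-Blue call was lost under 11 of 15 alternative settings, and without untreated replicate 1 the change was -0.16 (adjusted p = 0.117). Sod2 and Gpx4 passed the test in neither line.

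Of the glutathione transferases 3 of 5 rose and 1 fell in K-Luc cells, beside 21.8% of all genes higher and 21.3% lower, and neither of the 2 that could be tested in RAW-Blue cells was called. Gstm2 stood at 8.47 and 8.89 CPM in untreated and 13.8, 13.7 and 12.1 CPM in SWNT/CpG K-Luc libraries, a change of 0.60 ± 0.11 (adjusted p = 0.000288, edgeR). Mgst1, the microsomal transferase, rose by 0.33 ± 0.093 and Gstm1 by 0.21 ± 0.066. Each of these calls was lost under 4 of 21 alternative settings, including without either untreated library. Gstp1 fell in K-Luc cells (-0.29 ± 0.068), and in RAW-Blue cells, where it had 9 to 29 reads a library, its change of 0.82 had an adjusted p of 0.107.

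Of the NADPH suppliers 3 of 5 fell and none rose in K-Luc cells, beside 21.3% of all genes lower and 21.8% higher. G6pdx, which makes the enzyme that commits glucose to the pentose phosphate pathway, had 152 and 172 CPM in untreated and 124, 146 and 142 CPM in SWNT/CpG libraries. All treated libraries lay below the untreated ones, with a log2 change of -0.27 ± 0.040 (adjusted p = 6.11e-05, edgeR). Taldo1 and Tkt, of the non-oxidative branch, fell with log2 changes of -0.20 ± 0.054 and -0.13 ± 0.052, the latter call lost under 12 of 21 alternative settings. In RAW-Blue cells Tkt had a change of -0.33 ± 0.10 (adjusted p = 0.0381, edgeR), a call lost under 10 of 15 alternative settings with adjusted p up to 0.198, and G6pdx had 299.5 and 248.7 CPM untreated and 342 and 321 CPM treated, a change of 0.28 ± 0.089 that just missed the threshold (adjusted p = 0.0501).

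The gene for the first step of heme breakdown rose in both lines. Hmox1 stood at 109 and 121 CPM in untreated and 155, 162 and 149 CPM in SWNT/CpG K-Luc libraries, a change of 0.43 ± 0.084 (adjusted p = 0.000787, edgeR). In RAW-Blue libraries it stood at 346 and 308 CPM untreated and 469 and 408 CPM treated, a change of 0.42 ± 0.089 (adjusted p = 0.00743, edgeR). Treated libraries were above untreated ones throughout. Blvrb, a biliverdin reductase, rose in RAW-Blue cells (0.43 ± 0.11) and had a change of -0.19 in K-Luc cells (adjusted p = 0.06).

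Of the genes for detoxification and export, Ephx1 and Esd changed by more than the others, Ephx1 in RAW-Blue cells and Esd in both lines. Ephx1 encodes the microsomal epoxide hydrolase. It had 28.1 and 30.0 CPM in untreated RAW-Blue libraries and 7.51 and 7.498 CPM with SWNT/CpG, a log2 change of -1.95 ± 0.10 (adjusted p = 3.55e-06, edgeR). The groups were far apart, and the value moved only from -2.00 to -1.90 when either untreated library was left out. In K-Luc cells it had 71.8 and 67.1 CPM untreated and 76.4, 73.3 and 71.6 CPM treated, a change of 0.10 ± 0.091 (adjusted p = 0.383).

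Esd encodes S-formylglutathione hydrolase, which returns glutathione during formaldehyde breakdown. In K-Luc libraries it had 199 and 225 CPM untreated and 125, 147 and 139 CPM with SWNT/CpG, a change of -0.66 ± 0.050 (adjusted p = 4.07e-08, edgeR). In RAW-Blue libraries it had 117 and 93.2 CPM untreated and 219 and 191 CPM treated, a change of 0.97 ± 0.11 (adjusted p = 0.000213, edgeR). The libraries were fully apart in each line and in opposite order. Abcc1, an exporter of glutathione conjugates, rose in RAW-Blue cells by 0.41 ± 0.083 and had a change of -0.092 in K-Luc cells. Cbr1, a carbonyl reductase, passed the test in neither line.

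**Figure D2:**
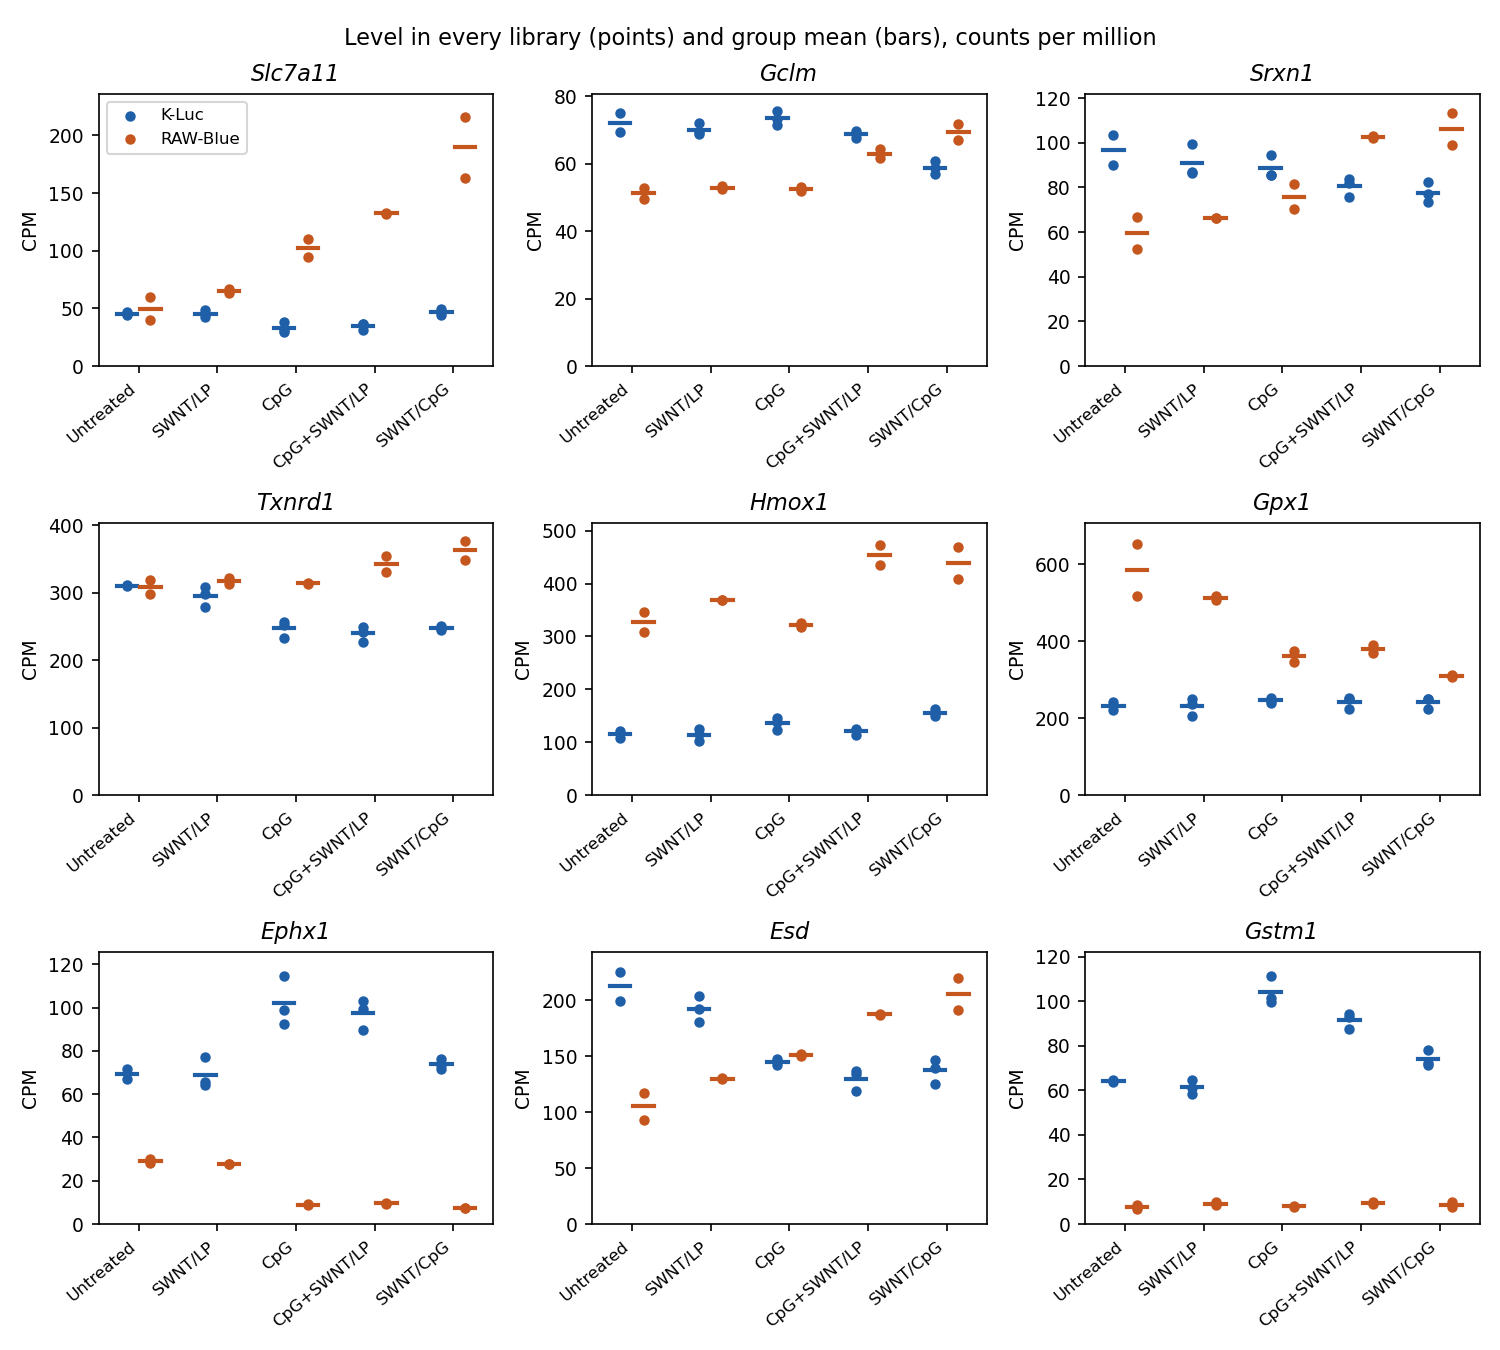
Level of 9 of the genes in each library (y axis, CPM scaled by TMM within each line, starting at 0) by treatment group (x axis), as points with bars at the group means, for K-Luc and RAW-Blue cells. Slc7a11 and Esd climb and Gpx1 and Ephx1 drop in the RAW-Blue groups that hold CpG, whereas Gstm1 is highest in the K-Luc groups with free CpG.

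Set side by side, the calls fell into a few patterns over the 29 genes tested in both lines with SWNT/CpG against untreated cells. Gclm, Txnrd1, Srxn1, Prdx1 and Esd fell in K-Luc and rose in RAW-Blue cells, a pattern held by 204 of the 10576 genes tested in both lines (1.93%). Of these 5 genes, the RAW-Blue call of Txnrd1 was lost under most alternative settings. The K-Luc calls of Srxn1 and Prdx1 were lost without untreated replicate 2. Cat and Hmox1 rose in both (3.54% of all genes), and Nfe2l2, Gclc, Sod1 and Tkt fell in both (2.8%), of which the Tkt calls in both lines and the RAW-Blue call of Sod1 were lost under most alternative settings. Slc7a11, Blvrb and Abcc1 rose in RAW-Blue cells and were not called in K-Luc cells (6.09%), and Gpx1 and Ephx1 fell in RAW-Blue cells and were not called in K-Luc cells (4.82%). Gstm1 rose in K-Luc cells and was not called in RAW-Blue cells (14.6%). Gsr, Txn1, Gstp1, G6pdx and Taldo1 fell in K-Luc cells and were not called in RAW-Blue cells (18.5%). Keap1, Gss, Sod2, Gpx4, Pgd, Me1 and Cbr1, 7 of the 29, were called in neither (45%).

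Since NRF2 acts through short elements near the genes it binds, the start regions of the genes were searched for their core, on both strands, from 250 bases before to 50 bases after each start. The core was spelled TGACNNNGC, or TGAGNNNGC for its common variant, and sequences came from RefSeq for GRCm38.p6, a later build than the mm9 assembly behind the counts. Of the 32 genes 27 had an entry, with 37 start regions in all. TGACNNNGC was found in 10 of the 37 start regions, and in 12.4% of all 32851 start regions of the table. Either spelling was found in 14 of the 37, and in 27.8% of all start regions. Those 14 belong to 1 gene each, namely Blvrb, G6pdx, Gclm, Gstp1, Me1, Mgst1, Nfe2l2, Pgd, Prdx1, Slc7a11, Sod1, Srxn1, Taldo1 and Txnrd1. The related AP-1 element TGANTCA was found in 4 of the 37, those of Gstp1, Me1, Prdx1 and Srxn1, where it overlaps a core match, and in 7.81% of all start regions. A match is a description of letters and no measure of binding.

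The 250 bases before the start are printed for 4 of the 5 genes that fell in K-Luc and rose in RAW-Blue cells, since these have a match and the entry of Esd has none. Each is given 5′ to 3′ on the plus strand of GRCm38.p6, with either spelling of the core in capitals. They are Gclm at chr3:122245307-122245556, Txnrd1 at chr10:82858956-82859205 (1 of 3 entries), Srxn1 at chr2:152105274-152105523 and Prdx1 at chr4:116685349-116685598.
Gclm: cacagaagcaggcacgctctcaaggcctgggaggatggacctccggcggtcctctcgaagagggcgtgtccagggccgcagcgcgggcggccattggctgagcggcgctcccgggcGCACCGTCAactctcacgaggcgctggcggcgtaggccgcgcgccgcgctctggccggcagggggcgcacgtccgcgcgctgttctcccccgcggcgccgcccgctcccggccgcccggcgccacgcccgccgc
Txnrd1: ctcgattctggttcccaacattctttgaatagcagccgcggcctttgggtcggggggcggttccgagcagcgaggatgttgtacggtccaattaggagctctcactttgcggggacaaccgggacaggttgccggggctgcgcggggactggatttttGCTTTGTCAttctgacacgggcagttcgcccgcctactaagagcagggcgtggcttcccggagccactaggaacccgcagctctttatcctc
Srxn1: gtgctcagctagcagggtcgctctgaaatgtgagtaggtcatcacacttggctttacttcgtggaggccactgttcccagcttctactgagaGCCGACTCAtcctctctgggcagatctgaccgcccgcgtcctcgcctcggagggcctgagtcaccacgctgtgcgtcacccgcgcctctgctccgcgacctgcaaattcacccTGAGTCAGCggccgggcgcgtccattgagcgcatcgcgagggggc
Prdx1: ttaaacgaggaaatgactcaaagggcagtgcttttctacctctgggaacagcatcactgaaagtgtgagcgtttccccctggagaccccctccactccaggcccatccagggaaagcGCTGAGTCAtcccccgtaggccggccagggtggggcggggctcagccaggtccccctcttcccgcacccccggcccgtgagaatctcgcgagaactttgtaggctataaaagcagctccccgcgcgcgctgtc
Read on the minus strand, Gclm carries TGACGGTGC 134 bases before its start, Txnrd1 TGACAAAGC 92 bases before and Prdx1 TGACTCAGC 133 bases before. Srxn1 carries TGAGTCGGC on the minus strand 158 bases before its start and TGAGTCAGC on the plus strand 45 bases before. Past the start, outside the stretch printed, Srxn1 carries TGACCTAGC at base 28 and Prdx1 TGAGAACGC at base 15, both on the minus strand. The matches thus differ in sequence, strand and distance among genes whose changes went the same way.

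With CpG and SWNT/LP given apart and together, the effect of each can be read within a line. The effect of CpG, averaged over cells without and with SWNT/LP, was called for 19 of 32 genes in K-Luc cells, 6 higher and 13 lower, beside 51.9% of all genes (26% higher, 25.9% lower). In RAW-Blue cells it was called for 9 of 29, 5 higher and 4 lower, beside 18.7% of all genes (8.8% higher, 9.94% lower). That count rose when either untreated library was left out. For free CpG against untreated cells alone, 14 of 32 genes changed in K-Luc cells, 5 higher and 9 lower, beside 36.2% of all genes (17.9% higher, 18.4% lower). In RAW-Blue cells 5 of 29 changed, 2 higher and 3 lower, beside 10.8% of all genes (5.18% higher, 5.6% lower). The K-Luc count fell without untreated replicate 2. The RAW-Blue count rose without either untreated library and fell without either CpG library. Each of these refits leaves 1 library in a group, so the shifts show nothing particular to these genes. With only the groups compared, the RAW-Blue count was 1, beside 1.12% of all genes.

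In K-Luc cells CpG raised Gstm1, Gstm2, Mgst1 and Ephx1 and lowered Gstp1, Esd, Gsr, Txnrd1 and Slc7a11, among others, while Gsta4 was not called. Gstm1, a mu-class transferase, stood at 63.6 and 64.5 CPM untreated, 111, 101 and 99.8 CPM with CpG, 64.5, 58.2 and 61.1 CPM with SWNT/LP and 92.9, 94.4 and 87.5 CPM with CpG+SWNT/LP. Every library with CpG was above every library without it, and the averaged effect was 0.64 ± 0.043 (adjusted p = 1.56e-08, edgeR). Gstm2 moved alike (0.60 ± 0.068), and so did Ephx1 with an averaged effect of 0.54 ± 0.059. Esd had 142, 146 and 147 CPM with CpG against 199 and 225 CPM untreated, and 119, 134 and 137 CPM with CpG+SWNT/LP against 181, 204 and 192 CPM with SWNT/LP. Its averaged effect was -0.57 ± 0.033 (adjusted p = 4.24e-09, edgeR), with no overlap at either pair. Txnrd1 had 233, 252 and 256 CPM with CpG and 227, 242 and 249.6 CPM with CpG+SWNT/LP, below the untreated pair given before and the 278, 309 and 298 CPM with SWNT/LP, an averaged effect of -0.32 ± 0.035 (adjusted p = 2.22e-06, edgeR). Slc7a11, whose level with SWNT/CpG overlapped the untreated libraries, had 29.8, 38.3 and 30.9 CPM with free CpG and an averaged effect of -0.42 ± 0.064 (adjusted p = 5.74e-05, edgeR).

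In RAW-Blue cells CpG raised Slc7a11 and Esd and lowered Gpx1 and Ephx1, in a comparison that shares its untreated libraries with that of SWNT/CpG. Slc7a11 rose from the untreated 39.7 and 59.6 CPM to 94.3 and 110.4 CPM with CpG, and stood at 132 and 133 CPM with CpG+SWNT/LP against 63.6 and 67.2 CPM with SWNT/LP. No CpG library overlapped a library without CpG, and the averaged effect was 1.03 ± 0.13 (adjusted p = 0.00114, edgeR). Ephx1 had 9.27 and 8.64 CPM with CpG and 9.88 and 9.41 CPM with CpG+SWNT/LP, against 28.1 and 30.0 CPM untreated and 27.7 and 27.5 CPM with SWNT/LP. Its averaged effect was -1.61 ± 0.068 (adjusted p = 6.46e-07, edgeR), again with no overlap. Gpx1 had 374 and 346 CPM with CpG and 389 and 369 CPM with CpG+SWNT/LP, all below the 652 and 518 CPM untreated and 517 and 506 CPM with SWNT/LP, and an averaged effect of -0.57 ± 0.071 (adjusted p = 0.000606, edgeR). Esd had 152 and 149.7 CPM with CpG, 187 and 188 CPM with CpG+SWNT/LP and 130.1 and 129 CPM with SWNT/LP, and an averaged effect of 0.53 ± 0.075 (adjusted p = 0.00123, edgeR). The remaining RAW-Blue calls were rises of Srxn1 (0.49 ± 0.086), Prdx1 (0.23 ± 0.061) and Me1 (0.32 ± 0.10) and falls of Gclc (-0.27 ± 0.051) and Nfe2l2 (-0.18 ± 0.054), given as log2 changes. Of these, the calls of Nfe2l2, Me1 and Prdx1 were lost under 12, 9 and 8 of 15 alternative settings.

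The coated nanotubes moved few of the genes when their effect was averaged over cells without and with CpG, and none by the test against untreated cells alone. Averaged over cells without and with CpG, SWNT/LP changed 2 of 32 genes in K-Luc cells, both lower, beside 0.564% of all genes (0.233% higher, 0.33% lower). In RAW-Blue cells it changed 1 of 29, a rise, beside 1.35% of all genes (1.17% higher, 0.174% lower). In K-Luc cells 28 of the 32 estimates, which share the same libraries, were below 0 with a median of -0.066, where 6294 of all 12420 genes were below 0 with a median of -0.001. Nfe2l2 stood at 168 and 177 CPM untreated and 170.1, 179 and 182 CPM with CpG, against 142, 149 and 149.8 CPM with SWNT/LP and 149, 148 and 139 CPM with CpG+SWNT/LP. All 6 libraries with SWNT/LP were below all 5 without, and the averaged effect was -0.26 ± 0.034 (adjusted p = 0.000722, edgeR), or -0.28 and -0.22 without untreated replicate 1 and 2. Esd was the other call, with an averaged effect of -0.17 ± 0.033 (adjusted p = 0.0253, edgeR), lost under 12 of 21 alternative settings. In RAW-Blue cells Hmox1 had 346 and 308 CPM untreated and 317 and 326 CPM with CpG, against 368 and 369 CPM with SWNT/LP and 435 and 472 CPM with CpG+SWNT/LP. All 4 libraries with SWNT/LP were above all 4 without, and the averaged effect was 0.34 ± 0.063 (adjusted p = 0.0374, edgeR). That call was lost under 9 of 15 alternative settings. The RAW-Blue count rose without either untreated library and fell without any other single library.

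For SWNT/LP against untreated cells alone, edgeR called 0 of 32 genes in K-Luc cells (5 at an unadjusted p under 0.05, 1 by DESeq2) beside 0.129% of all genes, and 0 of 29 in RAW-Blue cells (2 at an unadjusted p under 0.05, 0 by DESeq2) beside 0.478%. The RAW-Blue count rose when either untreated library was left out. The interaction, which asks whether CpG acted differently with SWNT/LP present, was called by edgeR for 0 of 32 genes in K-Luc (0 at an unadjusted p under 0.05, 0 by DESeq2) and 0 of 29 in RAW-Blue cells (2 at an unadjusted p under 0.05, 0 by DESeq2), beside 0% of all genes in each line. The earlier K-Luc run held untreated and CpG+SWNT/LP libraries but none with CpG or SWNT/LP alone. The K-Luc interaction estimate thus depends on the run term. In RAW-Blue cells 12 of the genes were called without untreated replicate 2, when 23.2% of all genes were.

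**Figure D3:**
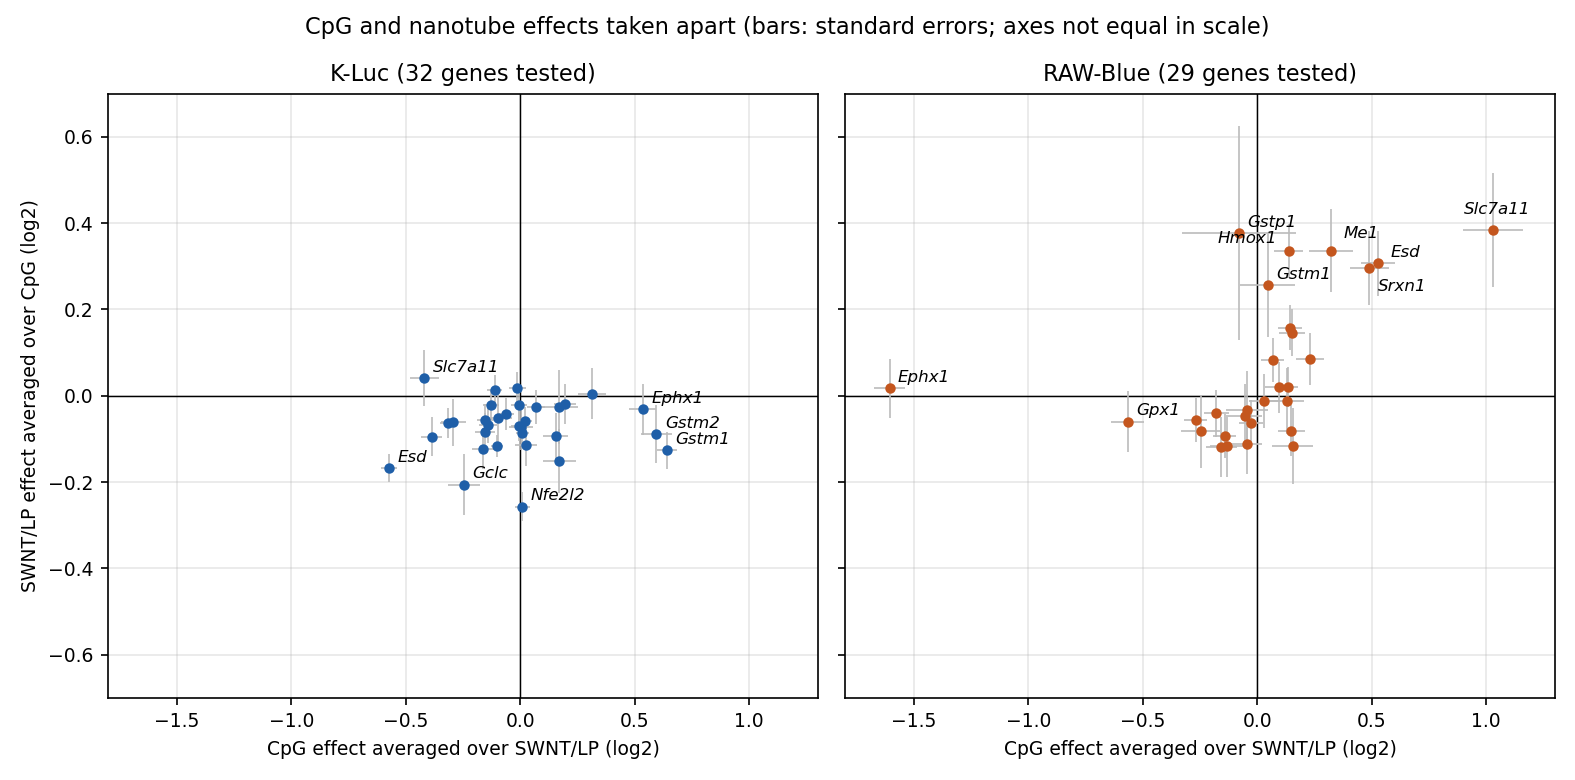
Averaged effect of CpG (x axis, log2 fold change) against averaged effect of SWNT/LP (y axis, log2 fold change) for each gene tested, in K-Luc (left) and RAW-Blue cells (right). Bars are SEs, and the points do not mark which effects were called. Genes spread mainly along the CpG axis in both panels, from Ephx1 at -1.61 to Slc7a11 at 1.03 in RAW-Blue cells, while Nfe2l2 lies lowest on the SWNT/LP axis in K-Luc cells.

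Binding the oligonucleotide to the nanotubes, as against adding it beside coated nanotubes, changed 5 of 32 genes in K-Luc cells, 2 higher and 3 lower, beside 17.7% of all genes (8.54% higher, 9.12% lower). These groups differ also in the lipid coat. Slc7a11 had 36.0, 36.4 and 31.6 CPM with CpG+SWNT/LP and 49.7, 47.0 and 44.4 CPM with SWNT/CpG, a log2 difference of 0.44 ± 0.085 (adjusted p = 0.00174, edgeR). Hmox1 had 123, 125 and 113 CPM and 155, 162 and 149 CPM in the same order, a difference of 0.37 ± 0.073 (adjusted p = 0.00224, edgeR). Both genes were higher in all 3 SWNT/CpG libraries than in any CpG+SWNT/LP library. Gstm1 fell back, from 92.9, 94.4 and 87.5 CPM to 72.4, 78.2 and 71.3 CPM, a difference of -0.31 ± 0.056 (adjusted p = 0.000996, edgeR), which left it above the untreated libraries. Ephx1 had 103, 99.4 and 89.4 CPM with CpG+SWNT/LP and 76.4, 73.3 and 71.6 CPM with SWNT/CpG, a difference of -0.40 ± 0.078 (adjusted p = 0.00209, edgeR). Gclm was the last, at 67.7, 69.7 and 69.0 CPM and 60.9, 58.8 and 56.9 CPM, with -0.23 ± 0.047 (adjusted p = 0.00242, edgeR). In each of these 3 genes every SWNT/CpG library was below every CpG+SWNT/LP library.

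In RAW-Blue cells the same comparison called 0 of 29 genes by edgeR (7 at an unadjusted p under 0.05, 0 by DESeq2) beside 0.825% of all genes (0.469% higher, 0.356% lower). Slc7a11 again had higher levels with SWNT/CpG, 216 and 163 CPM against 132 and 133 CPM, a difference of 0.52 ± 0.18 with an adjusted p of 0.249. Ephx1 had 7.51 and 7.498 CPM against 9.88 and 9.41 CPM, a difference of -0.36 ± 0.11 (adjusted p = 0.157, edgeR). The libraries of each gene did not overlap, yet with 2 a group neither difference passed the test. A fit of these 4 libraries alone called 4 genes, beside 7.36% of all genes. The count also rose when either untreated library was left out.

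The response to SWNT/CpG differed between the lines for 14 of 32 genes when the difference itself was tested, 12 with the higher value in RAW-Blue cells and 2 with the lower, beside 25.4% of all genes (14.4% higher, 11.1% lower). Of the 32, Gstm2, Mgst1 and Gsta4 did not pass the filter on low counts in RAW-Blue cells, so their differences could not be judged. The median difference over the genes was 0.20 and over all genes 0.04. All 4 thioredoxin and peroxiredoxin genes were among the 12, and so were 3 of the 5 genes of cystine import and glutathione synthesis. The widest differences, RAW-Blue response minus K-Luc response on the log2 scale, were those of Ephx1 at -2.06 ± 0.15 (adjusted p = 1.17e-09, edgeR), Slc7a11 at 1.87 ± 0.21 (adjusted p = 2.28e-06, edgeR) and Esd at 1.62 ± 0.12 (adjusted p = 1.59e-09, edgeR). Srxn1 followed at 1.16 ± 0.14, Gpx1 at -0.97 ± 0.12 and Gclm at 0.74 ± 0.091. For the genes that moved alike in both lines the differences were small, 0.003 ± 0.091 for Nfe2l2, -0.013 ± 0.13 for Hmox1 and 0.13 ± 0.11 for Cat, and none passed the test. Whether a difference belongs to the line, the longer treatment or the plating cannot be told apart.

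**Figure D4:**
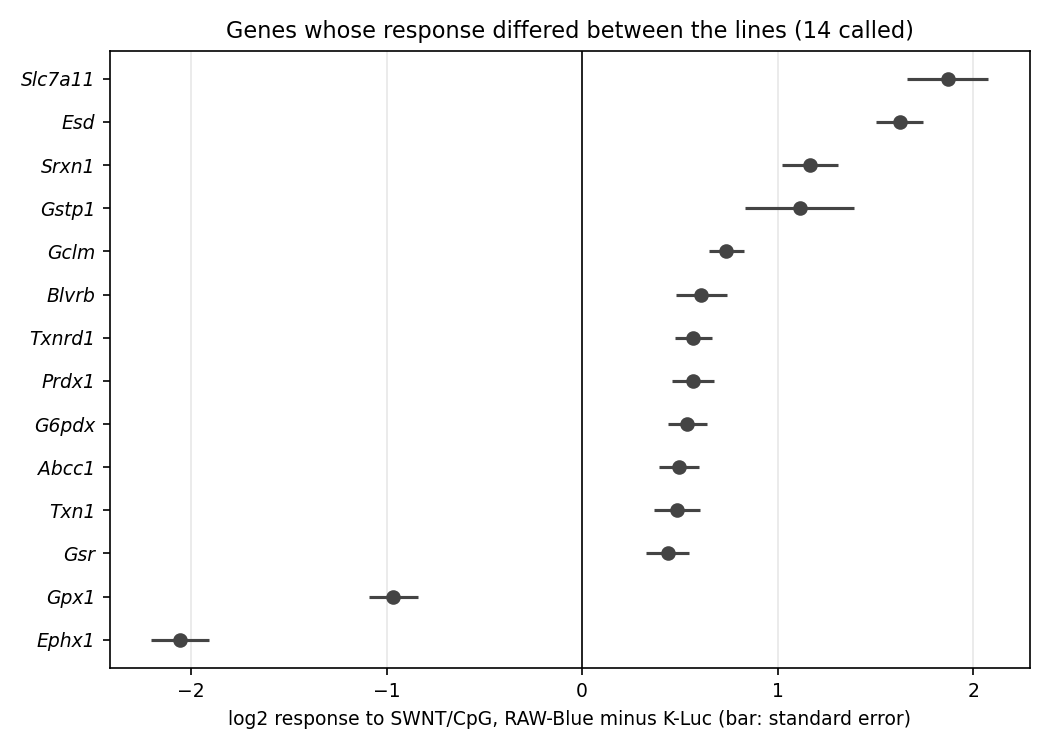
Log2 response to SWNT/CpG in RAW-Blue cells minus that in K-Luc cells (x axis, bars of 1 SE) for the 14 genes (y axis) whose response differed between lines. Ephx1 and Gpx1 have negative values and the other 12 genes positive ones.

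Other genes of the same systems were read from lists of related genes in the SWNT/CpG comparison with untreated cells, where 21.8% of all genes rose and 21.3% fell in K-Luc cells, and 12.8% rose and 10.4% fell in RAW-Blue cells. Of other known NRF2 targets, 2 of 19 tested rose and 8 fell in K-Luc cells, and 6 of 16 rose and none fell in RAW-Blue cells. Idh1 was among those that rose in K-Luc cells, by 0.545 ± 0.087. Nqo1, a quinone reductase and a classic NRF2 target, had 27.8 and 35.6 CPM in untreated and 16.7, 21.0 and 18.1 CPM in SWNT/CpG K-Luc libraries, a log2 change of -0.81 ± 0.10 (adjusted p = 5.15e-06, edgeR). With SWNT/LP averaged over CpG, 2 of the 19 fell in K-Luc cells, beside 0.233% of all genes higher and 0.33% lower. They were Nqo1 with -0.56 ± 0.061 and the aldehyde dehydrogenase gene Aldh3a1 with -1.32 ± 0.17, and the other 17 were not called. The only RAW-Blue call of this list for that effect was a rise of Akr1b8 (0.375 ± 0.067), whose libraries overlapped, beside 1.17% of all genes higher and 0.174% lower. In RAW-Blue cells Nqo1 was too low to test, at 0.114 to 0.504 CPM. Sqstm1, an autophagy receptor that binds KEAP1, rose in RAW-Blue cells by 1.02 ± 0.13, and Akr1b8, an aldo-keto reductase, by 1.00 ± 0.10.

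Among regulators of the pathway, 7 of 13 rose and 1 fell in K-Luc cells, beside 21.8% and 21.3% of all genes, and 4 of 12 rose in RAW-Blue cells with none lower, beside 12.8% and 10.4%. Bach1, the repressor that competes with NRF2, rose in K-Luc cells by 0.26 ± 0.057 and had a change of 0.18 ± 0.14 in RAW-Blue cells (adjusted p = 0.394, edgeR). Nfe2l1, which encodes a relative of NRF2, rose in both, by 0.60 ± 0.066 and 0.69 ± 0.078. Of other genes of glutathione metabolism, 3 of 15 rose and 2 fell in K-Luc cells, shares below those of all genes, and 5 of 17 rose and 2 fell in RAW-Blue cells. Cth, whose enzyme makes cysteine from cystathionine, had 5.31 and 6.21 CPM in untreated and 86.2 and 64.9 CPM in SWNT/CpG RAW-Blue libraries, a change of 3.71 ± 0.27. Chac1, which breaks glutathione down, rose there by 1.73 ± 0.26, and Mgst3 fell there, with a change of -0.95 ± 0.11.

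The same shares of all genes, 21.8% higher and 21.3% lower in K-Luc and 12.8% and 10.4% in RAW-Blue cells, stand beside the counts of the remaining lists. Of other peroxiredoxin, thioredoxin, glutaredoxin and glutathione peroxidase genes, 2 of 18 rose and 6 fell in K-Luc cells, and 3 of 15 rose and 1 fell in RAW-Blue cells. The RAW-Blue rises included Prdx5 with 0.81 ± 0.13 and Glrx with 1.14 ± 0.13, and the fall was that of Txnip with -0.39 ± 0.079. Of other NADPH suppliers, 1 of 11 rose and 6 fell in K-Luc cells, and 2 of 11 rose and 3 fell in RAW-Blue cells. Of the NADPH oxidase and nitric oxide synthase genes, which make oxidants, 1 of 2 tested rose in K-Luc cells, Nox4 with 0.57 ± 0.088. In RAW-Blue cells 2 of 8 rose and 1 fell, Rac2 with 0.33 ± 0.077 and Ncf1 with -0.46 ± 0.065 among them. Nos2, the inducible nitric oxide synthase, had 3.71 and 3.95 CPM in untreated and 157 and 144 CPM in SWNT/CpG RAW-Blue libraries, a change of 5.29 ± 0.19.

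Several of the 32 genes share sequence with other transcripts, and how the authors' counting treated such reads is not stated. The share of a gene's 50-base stretches that also occur in transcripts of other genes (GENCODE M21) was 62.3% for Gstp1, 61.7% for Gpx4, 32.8% for Me1, 23.1% for Sod1 and 23.1% for Gstm1, and 9.36% to 14.1% for Gstm2, Keap1, G6pdx, Taldo1, Prdx1 and Esd. The values of these genes are uncertain to that extent.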

How the data were processed

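Polyadenylated RNA of 24 libraries was read as counts per gene. Reads were aligned with TopHat2 2.0.14 to mm9 and counted with HTSeq 0.6.0, per the submitters' processing notes, from libraries of a stranded kit, per the labels' protocols. Which annotation and strand setting were used is not stated. The authors deposited raw counts and, beside them, RPKM values, which are whole-library normalised, divided by transcript length and rounded to 1 decimal, so low RPKM values are coarse. RPKM served only to compare levels between genes.

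Counts were tested with edgeR 4.0.16 (R 4.3.3), with TMM scaling, filterByExpr (minimum count 10, minimum total 15), a robust quasi-likelihood fit and Benjamini-Hochberg adjustment over all genes tested. K-Luc was fitted with group and sequencing run (14 libraries, 12420 genes), RAW-Blue with group (10 libraries, 11514 genes) and both lines together with group and run (24 libraries, 13350 genes). The SE is the size of the log2 change divided by the square root of F. Each result was also computed with DESeq2 1.42.0, with size factors of DESeq2 inside edgeR, without the filter, with a replicate block, on the compared groups only, without the run term, on the later run alone, and with each library left out. Library totals of 13318636 to 24130359 reads set the precision of a CPM value.

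The genes and all lists were chosen with earlier results of these data known. Named with full values were Nfe2l2, Keap1, Slc7a11, Gclc, Gclm, Hmox1, Txnrd1 and Srxn1, up to 6 genes a line with the smallest adjusted p for SWNT/CpG against untreated cells and for the difference between lines, and up to 4 for the other comparisons, among genes called whose libraries did not overlap and whose mean log2 CPM was at least 1. Other genes of the 32 are given by role. Of related genes up to 3 a list and line were named, plus Nqo1 and Bach1. Samples were grouped by the labels' treatment and line.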

Additional observations from a re-analysis of the deposited data

Results flagged for a closer look

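The response to SWNT/CpG differed between RAW-Blue and K-Luc cells for 14 of the 32 genes by a test of the difference itself in the fit of both lines (edgeR quasi-likelihood, Benjamini-Hochberg adjusted p under 0.05). The 32 include Gstm2, Mgst1 and Gsta4, whose RAW-Blue counts were too low for a difference to be judged. Values are the RAW-Blue log2 response minus the K-Luc log2 response ± SE. The difference was 1.87 ± 0.21 for Slc7a11, 0.74 ± 0.091 for Gclm and 0.44 ± 0.11 for Gsr among the genes of cystine import and glutathione. In the thioredoxin group it was 1.16 ± 0.14 for Srxn1, 0.57 ± 0.094 for Txnrd1, 0.57 ± 0.11 for Prdx1 and 0.49 ± 0.12 for Txn1. It was 1.62 ± 0.12 for Esd, 0.61 ± 0.13 for Blvrb, 0.54 ± 0.10 for G6pdx and 0.50 ± 0.10 for Abcc1. Gpx1 and Ephx1 went the other way, with -0.97 ± 0.12 and -2.06 ± 0.15. For Gstp1 it was 1.11 ± 0.28, which rests on 9 to 29 reads in a RAW-Blue library and was not called without RAW-Blue untreated replicate 1 (adjusted p = 0.147). Without K-Luc untreated replicate 2 the differences of Gsr (adjusted p = 0.106) and Txn1 (adjusted p = 0.0552) were not called. Line, treatment time and plating cannot be told apart in these differences.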

How the results depend on the processing

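Of 2874 recomputed values of 129 gene calls, 2652 kept their direction and stayed past the threshold, 222 lost the call, and none reversed. Counts that moved by over 1.5 times were as follows. In K-Luc cells SWNT/LP against untreated, 0 genes as reported, gave 1 with DESeq2 and 2 with the replicate block, beside 0.266% and 0.491% of all genes. The averaged SWNT/LP effect there, 2 as reported, gave 7 with the replicate block, beside 2.12% of all genes. It gave 1 without the run term and 1 with only the groups compared, beside 0.395% and 0.444% of all genes. The count also fell in the later run alone. In RAW-Blue cells, fitting only the groups compared gave 1 gene for CpG against untreated (5 as reported), 5 for SWNT/CpG against untreated (16 as reported), 0 for the averaged SWNT/LP effect (1 as reported) and 4 for SWNT/CpG against CpG+SWNT/LP (0 as reported). The shares of all genes called in these fits were 1.12%, 7.97%, 0.78% and 7.36% in that order. The averaged SWNT/LP effect in RAW-Blue cells gave 2 with DESeq2 and 2 without the filter, beside 2.2% and 1.65% of all genes. Leaving out each library in turn gave ranges in K-Luc cells of 5 to 17 for CpG against untreated, 0 to 1 for SWNT/LP against untreated, 10 to 19 for SWNT/CpG against untreated and 1 to 3 for averaged SWNT/LP. In RAW-Blue cells the ranges were 2 to 14 for CpG against untreated, 0 to 11 for SWNT/LP against untreated, 7 to 23 for SWNT/CpG against untreated, 6 to 17 for averaged CpG, 0 to 15 for averaged SWNT/LP, 0 to 12 for the interaction and 0 to 7 for SWNT/CpG against CpG+SWNT/LP. The top RAW-Blue counts came without untreated replicate 2 (the last also without replicate 1), and the low of 7 for SWNT/CpG without SWNT/CpG replicate 1. The 5 and 10 in K-Luc cells came without untreated replicate 2. The leave-one-out ranges stand without the share of all genes called in each fit, so they show no gain or loss particular to these genes. Whether replicate numbers pair the libraries was not settled. Correlations of deviations between same-numbered libraries of different groups ran from -0.557 to 0.507 in K-Luc and -0.099 to 0.181 in RAW-Blue cells. Their medians were 0.005 and 0.023. For SWNT/CpG against untreated K-Luc cells the replicate block called 52.6% of all genes, against 43.1% as reported. With 2 or 3 libraries a group, real changes may have gone uncalled, and the cause of lost calls was not tested.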
